A study of Mus musculus with 6 samples.

Results

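The eosinophil granule proteins and ribonucleases were followed here as 9 genes: Prg2, Prg3, Epx, Ear1, Ear2, Ear6, Alox15, Ccr3 and Siglecf. They were taken as the rows of the expression tables whose symbol is one of these names, and made up 9 of the 30733 symbols in the tables. The study sequenced polyadenylated RNA of cells that the submitters sorted from mouse bone marrow and labelled hematopoietic stem cells (HSCs), and split them by surface MHC class II, the molecule that presents peptides to helper T cells. The MHCII-hi group and the MHCII-lo group had 3 libraries each. All mice were WT and had been exposed to 5 Gy total body irradiation, in both groups alike, so no unirradiated cells enter any value below. Sort gates, ages of the mice and the interval between exposure and sorting are not given in the sources at hand. The labels do not say whether libraries of a group came from separate mice, and p-values therefore measure only how much these libraries vary, which can be technical.

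Eosinophils are granulocytes that mature in the bone marrow under interleukin 5 and store a small set of cationic proteins in their specific granules. Major basic protein, a peroxidase and ribonucleases of the RNase A superfamily are the bulk of that cargo, and all are toxic to parasites and to host tissue when released. Granule protein transcripts are made mainly in immature eosinophils of the marrow, and the receptors of the mature cell guide it to tissue. Several of these genes are also transcribed elsewhere: basophils make Prg2, and some resident macrophages make Ear2, Alox15 or Siglecf.

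All 9 genes were higher in MHCII-hi libraries, by 1.83-fold for Siglecf to 4.74-fold for Ear6, and in each of them the MHCII-hi and MHCII-lo values did not overlap. Each also passed the test used throughout, limma on log2(FPKM + 1) with Benjamini-Hochberg adjustment over all 12110 genes whose mean reached 1 FPKM (fragments for each kilobase of transcript, relative to the size of the library) and an adjusted p under 0.05. Of all genes tested, 25.5% were called higher in MHCII-hi libraries, 33.1% were called lower and 58.6% were called in either direction. The groups did not overlap in 29.0% with the MHCII-hi values above, and in 36.8% with them below. The median log2 change of the 9 genes was 1.57, against −0.04 over all tested genes. A log2 change of at least 1 with a call was reached by 4.1% of tested genes, and by 8 of the 9, Siglecf being the exception. In libraries made from many cells, more cells of a type and more RNA per cell cannot be told apart.

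The ribonuclease genes include Ear6, which changed the most, and are near copies of each other, so their sequences are shown first. The windows below run from 250 bases before to 50 bases after the RefSeq transcript start on GRCm38.p6, 5′ to 3′ on the gene's own strand, and are shown because Ear1 and Ear2 changed by nearly the same amount and Ear6 by more. They lie at chr14:43819590-43819889 on the minus strand for Ear1, at chr14:44102404-44102703 on the plus strand for Ear2 and at chr14:51853518-51853817 on the plus strand for Ear6. Capitals mark bases that differ from Ear1 or are added relative to it in a pairwise alignment. Bases missing relative to Ear1 are not marked.
Ear1 promoter window: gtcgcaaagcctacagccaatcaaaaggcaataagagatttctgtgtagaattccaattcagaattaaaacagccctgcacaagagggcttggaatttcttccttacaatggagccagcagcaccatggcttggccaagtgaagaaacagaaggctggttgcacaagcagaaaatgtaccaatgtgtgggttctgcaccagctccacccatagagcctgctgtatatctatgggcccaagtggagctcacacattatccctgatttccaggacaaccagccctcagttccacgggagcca
Ear2 promoter window: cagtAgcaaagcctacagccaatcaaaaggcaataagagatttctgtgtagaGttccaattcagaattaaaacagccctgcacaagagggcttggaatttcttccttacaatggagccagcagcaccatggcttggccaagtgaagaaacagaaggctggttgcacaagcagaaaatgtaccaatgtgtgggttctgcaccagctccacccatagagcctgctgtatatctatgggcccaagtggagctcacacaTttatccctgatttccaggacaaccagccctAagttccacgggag
Ear6 promoter window: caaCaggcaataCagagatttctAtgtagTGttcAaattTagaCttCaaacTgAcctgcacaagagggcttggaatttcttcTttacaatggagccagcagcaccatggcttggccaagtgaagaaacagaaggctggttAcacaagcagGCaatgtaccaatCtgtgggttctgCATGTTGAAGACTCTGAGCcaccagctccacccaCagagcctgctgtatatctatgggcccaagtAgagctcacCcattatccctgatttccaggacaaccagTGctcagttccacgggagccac
The Ear2 window was 98.7% identical to that of Ear1 over the aligned positions, and the Ear6 window was 86.6% identical to that of Ear1. The capitals of Ear6 include 1 unbroken block, present in Ear6 and absent from Ear1. Against the windows of Epx, Prg3, Ccr3 and Siglecf, the Ear1 window was 47.1% to 48.2% identical. Whether any of these sequence differences bears on the changes in level was not tested.

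The first 120 coding bases of the same genes, from GENCODE M21 on GRCm38 and again with differences from Ear1 in capitals, show how alike the transcripts are that the reads had to be assigned to.
Ear1 coding start: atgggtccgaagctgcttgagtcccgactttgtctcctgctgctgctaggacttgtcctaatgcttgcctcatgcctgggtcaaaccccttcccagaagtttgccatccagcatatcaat
Ear2 coding start: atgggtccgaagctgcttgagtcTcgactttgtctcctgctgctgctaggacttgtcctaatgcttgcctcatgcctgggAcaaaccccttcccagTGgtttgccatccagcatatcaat
Ear6 coding start: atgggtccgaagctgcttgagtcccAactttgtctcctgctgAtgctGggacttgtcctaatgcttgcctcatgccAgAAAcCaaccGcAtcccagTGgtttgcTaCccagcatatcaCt
Over the whole coding sequence Ear1 and Ear2 were 95.1% identical, Ear1 and Ear6 were 87.4% identical, and Ear2 and Ear6 were 87.7% identical. Of all 100-base stretches of its transcript, Ear1 shared 17.3% with another transcript of the genes compared, most of them with the pseudogene Ear-ps9. Ear2 shared 13.9%, with Ear10, and Ear6 shared 0%. The split of reads between Ear1, Ear2, Ear10 and Ear-ps9 is therefore uncertain. Among the transcripts compared Ear6 is less exposed to it, but Ear3, Ear4, Ear5, Ear7, Ear12 and Ear14 were not compared. The remaining members shared 0% of such stretches with the transcripts they were compared with.

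Promoter windows were held in the RefSeq table for 7 of the 9 genes, which leaves out Prg2 and Alox15. The windows of Prg3, Siglecf and Ccr3 are shown because GATA factors are known to drive eosinophil development and these are the member windows that hold GATA letters, in capitals. The letters searched on either strand were AGATAA, the variant AGATAG with another last base, the variant TGATAA with another first base, and the form TGATAG with both. They lie at chr2:84987965-84988264 for Prg3, chr7:43351091-43351390 for Siglecf and chr9:124021721-124022020 for Ccr3, each on the plus strand of GRCm38.p6.
Prg3 promoter window: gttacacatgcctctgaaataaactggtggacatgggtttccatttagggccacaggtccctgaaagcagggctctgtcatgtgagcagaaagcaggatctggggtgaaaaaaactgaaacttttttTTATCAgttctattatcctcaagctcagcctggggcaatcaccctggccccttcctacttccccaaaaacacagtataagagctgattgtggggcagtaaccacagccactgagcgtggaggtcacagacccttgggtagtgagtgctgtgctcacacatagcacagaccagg
Siglecf promoter window: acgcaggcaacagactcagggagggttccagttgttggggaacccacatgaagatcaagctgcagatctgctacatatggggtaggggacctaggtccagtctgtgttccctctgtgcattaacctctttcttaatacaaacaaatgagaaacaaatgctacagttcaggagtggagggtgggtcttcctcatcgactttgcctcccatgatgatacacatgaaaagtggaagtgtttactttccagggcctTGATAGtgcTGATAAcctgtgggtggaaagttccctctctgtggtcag
Ccr3 promoter window: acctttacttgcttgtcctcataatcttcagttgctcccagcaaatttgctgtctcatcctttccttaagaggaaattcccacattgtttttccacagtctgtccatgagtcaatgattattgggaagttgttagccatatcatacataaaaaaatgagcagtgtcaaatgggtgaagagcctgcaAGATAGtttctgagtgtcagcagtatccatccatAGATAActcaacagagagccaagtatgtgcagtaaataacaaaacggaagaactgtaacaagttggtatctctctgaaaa
The letters occurred 1 time in Prg3, 2 times in Siglecf and 2 times in Ccr3, and are not in the windows of Epx, Ear1, Ear2 or Ear6. Of all 32851 promoter windows of this length in the table, 29.8% held at least 1 of them. The letters TATAAA, or the alternative form TATATA, searched on both strands, were found in Epx among the 7 windows and in 17.1% of all windows. The CCAAT letters, on either strand, occurred 3 times each in Ear1 and Ear2 and 1 time each in Ear6 and Ccr3 among the 7 windows, against 37.4% of all windows with at least 1. TTNNGNAA, the core letters bound by C/EBP factors, was found in 6 of the 7 windows on either strand, Epx being without it, and in 40.7% of all windows. GAGGAA, letters bound by ETS factors, was found on either strand in Siglecf and Ccr3 and in 28.3% of all windows. These matches describe the letters of the windows and carry no reading about binding.

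The groups overlapped in library size and differed in make-up. Depth was estimated from the smallest steps of the FPKM values at 20500000 to 33000000 fragments in MHCII-hi libraries and 23000000 to 24800000 in MHCII-lo libraries. The sort showed in the RNA: the summed level of Cd74, H2-Aa, H2-Ab1 and H2-Eb1 was 563.3 to 581.3 FPKM in MHCII-hi libraries and 21.23 to 21.46 FPKM in MHCII-lo libraries. Markers of long-term HSCs were mixed in level. Of 18 listed genes, 6 were below the minimum: Mecom, Fgd5, Procr, Slamf1, Hoxb5 and Ctnnal1 each averaged below 1 FPKM in both groups. The 12 that were tested include Kit, at 14.98 FPKM for MHCII-hi against 12.59 FPKM for MHCII-lo. Ly6a stood at 35.54 against 2.50 FPKM and Hlf at 1.51 against 1.22 FPKM. The 18 listed long-term HSC genes summed to 97.21 to 103.5 FPKM in MHCII-hi libraries, against 45.94 to 46.78 FPKM in MHCII-lo libraries, with 8 of 12 tested members higher, among them Ly6a, Flt3, Cd34, Meis1 and Kit. Whether the sorted cells are HSCs was not tested, and they are called by their gate, MHCII-hi and MHCII-lo. Immunoglobulin genes took 23.4% to 23.7% of the summed FPKM in MHCII-hi libraries and 0.493% to 0.502% in MHCII-lo libraries, which lowers the relative value of every other gene in MHCII-hi libraries.

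**Figure D1:**
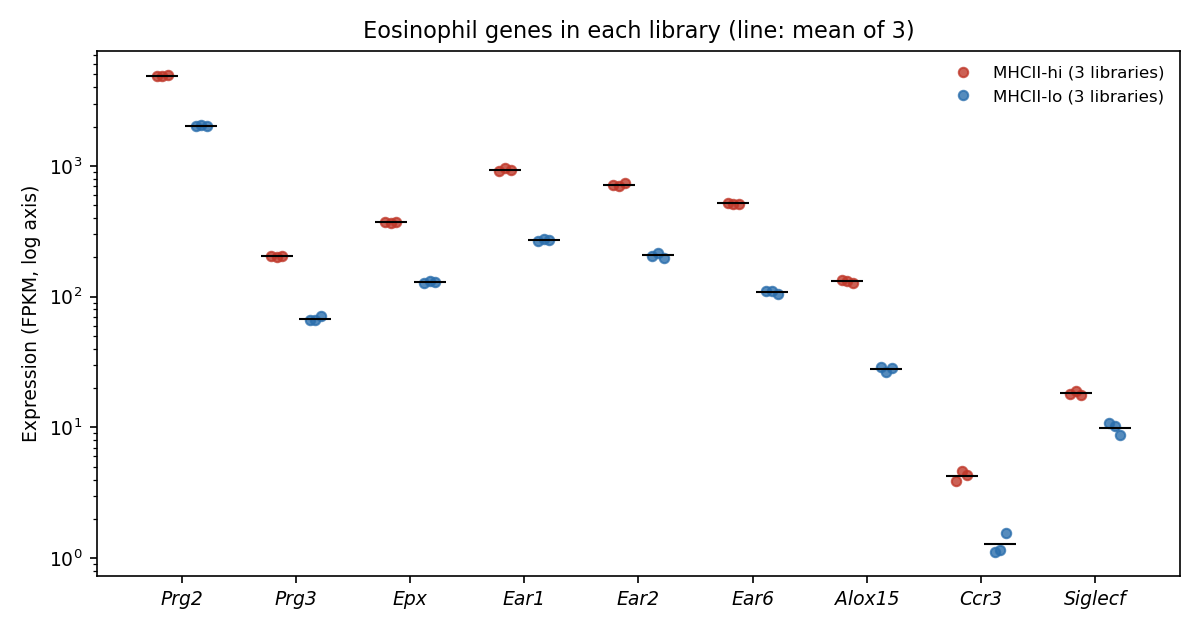
Level of each of the 9 eosinophil genes in every library, in FPKM on a log axis, with MHCII-hi libraries to the left of MHCII-lo libraries and a line at the mean of 3. In each gene the 3 MHCII-hi points lie above the 3 MHCII-lo points; Prg2 stands highest, near 4902 against 2024 FPKM, and Ccr3 lowest, at 4.29 against 1.28 FPKM.

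Prg2 encodes the precursor of major basic protein, the crystalline core of the eosinophil granule. Its level was 4861.81, 4856.15 and 4989.18 FPKM across the MHCII-hi libraries, against 2021.93, 2040.94 and 2010.49 FPKM across the MHCII-lo libraries. Libraries of a group differed little beside the gap between groups, and the gene was among the most abundant in both, at rank 4 of 30733 symbols in MHCII-hi and rank 16 in MHCII-lo. The means were 4902 ± 75.2 FPKM in MHCII-hi and 2024 ± 15.4 FPKM in MHCII-lo (SD, n = 3 each), a ratio of 2.42. On the log2(FPKM + 1) scale the change was 1.28 (limma adjusted p = 5.01e-09, SE 0.015, 95% interval 1.24 to 1.31). Prg2 lies at chr2:84980461-84983632 on the plus strand of GRCm38.

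Prg3, which encodes a second protein of the major basic protein type, is the next eosinophil gene along that strand, 4.58 kb downstream at chr2:84988215-84993886. The coding sequences of Prg2 and Prg3 were 64.3% identical. Prg3 was at 204.94, 200.74 and 205.21 FPKM in MHCII-hi libraries and at 65.88, 66.44 and 71.35 FPKM in MHCII-lo libraries. All MHCII-hi values were close to each other and well above the MHCII-lo values. The means of 203.6 ± 2.51 and 67.89 ± 3.01 FPKM (SD, n = 3 each) gave a ratio of 2.999 and a log2 change of 1.57 (limma adjusted p = 1e-07, SE 0.034). It ranked 279 among all symbols in MHCII-hi and 663 in MHCII-lo, far below its neighbour.

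Epx encodes eosinophil peroxidase, a haem enzyme that uses hydrogen peroxide to oxidise halides. It was at 371.78, 362.87 and 374.7 FPKM in MHCII-hi libraries and 127.2, 132.87 and 129.59 FPKM in MHCII-lo libraries. The groups were far apart and each was tight. The means were 369.8 ± 6.16 and 129.9 ± 2.85 FPKM (SD, n = 3 each), 2.85-fold higher in MHCII-hi, with a log2 change of 1.502 (limma adjusted p = 2.04e-08, SE 0.023). Epx lies at chr11:87864000-87875536 on the minus strand, 35.7 kb from Lpo, the lactoperoxidase gene, and 59.6 kb from Mpo, the peroxidase of neutrophil primary granules.

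The other haem peroxidases had smaller or opposite changes. Mpo, whose coding sequence was 71.0% identical to that of Epx, averaged 1537 ± 26.4 FPKM in MHCII-hi libraries and 1793 ± 26.4 FPKM in MHCII-lo libraries (SD, n = 3 each). It fell by 0.22 on the log2 scale (limma adjusted p = 7.08e-05), a call that was lost when libraries were scaled without immunoglobulin genes (log2 change −0.05, adjusted p = 0.0759). Ptgs2, the inducible cyclooxygenase, rose to 19.96 FPKM in MHCII-hi against 11.78 FPKM in MHCII-lo (log2 change 0.71, limma adjusted p = 3.87e-06). Ptgs1, the constitutive cyclooxygenase, did not pass at 14.03 against 15.59 FPKM (log2 change −0.14, limma adjusted p = 0.0511), and was called lower at a minimum of 5 FPKM (adjusted p = 0.0425) and without MHCII-hi replicate 2 (−0.18, adjusted p = 0.0271). Lpo stayed below the minimum, at 0.603 and 0.597 FPKM, Duox1 and Duox2 were at or near 0, and Pxdn was listed at 0 in every library. Of the 7 relatives of Epx in the tables, 3 were tested, and 1 was higher, 1 was lower and 1 did not pass.

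The Ear genes encode the eosinophil-associated ribonucleases, secreted enzymes of the RNase A superfamily that mice have in many copies and whose human relatives are eosinophil cationic protein and eosinophil-derived neurotoxin. Ear1 was at 910.97, 963.43 and 931.66 FPKM in MHCII-hi libraries and at 267.88, 275.02 and 273.18 FPKM in MHCII-lo libraries. Ear2 was at 718.32, 705.75 and 735.32 FPKM in MHCII-hi libraries and at 205.5, 216.81 and 198.34 FPKM in MHCII-lo libraries. In both genes the lowest MHCII-hi value was far above the highest MHCII-lo value. Ear1 averaged 935.4 ± 26.4 and 272.0 ± 3.71 FPKM, and Ear2 averaged 719.8 ± 14.8 and 206.9 ± 9.31 FPKM, for MHCII-hi and for MHCII-lo (SD, n = 3 each). Their ratios of 3.44 and 3.48 and their log2 changes of 1.78 (limma adjusted p = 1.03e-08, SE 0.024) and 1.80 (limma adjusted p = 5.83e-08, SE 0.035) had overlapping 95% intervals.

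Ear6 changed more than Ear1 and Ear2, with a 95% interval above theirs. Its level was 521.29, 512.74 and 514.27 FPKM in MHCII-hi libraries and 110.18, 111.08 and 105.52 FPKM in MHCII-lo libraries. The means of 516.1 ± 4.56 and 108.9 ± 2.98 FPKM (SD, n = 3 each) gave a ratio of 4.74 and a log2 change of 2.23 (limma adjusted p = 3.56e-09, SE 0.024). It had the largest change of the 9 genes, although it was the least abundant of the 3 ribonucleases in both groups. The Ear1 gene is annotated at chr14:43818765-43875517 on the minus strand, a span that overlaps most of Ear-ps9, Ear2 at chr14:44102654-44103534 on the plus strand and Ear6 farther along the chromosome at chr14:51853699-51854643 on the plus strand.

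Because near-identical copies compete for reads, Ear1, Ear2, Ear6, Ear10 and Ear-ps9 were also summed, after weighting by exon length, into 1 value per library, a setting chosen after seeing the data. The sum was 2476, 2514 and 2506 in MHCII-hi libraries and 662.3, 680.8 and 653.4 in MHCII-lo libraries, on an FPKM scale. The total over these copies was 3.76-fold higher in MHCII-hi (limma adjusted p = 2.27e-09), a log2 change of 1.91 with an SE of 0.018. Ear-ps9, looked up after values were seen, averaged 190.9 ± 7.13 FPKM in MHCII-hi and 49.34 ± 0.76 FPKM in MHCII-lo (SD, n = 3 each; log2 change 1.93, limma adjusted p = 2.51e-08). Ear10 was scarce at 2.907 ± 0.644 and 0.857 ± 0.215 FPKM for MHCII-hi and for MHCII-lo, with a log2 change of 1.07 (limma adjusted p = 0.000691) that rests on an estimated 11 fragments in its lowest library.

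Other members of the RNase A superfamily went both ways. Of 12 listed relatives in the tables, 6 were tested, of which 3 were higher, 2 were lower and 1 did not pass. Rnase12 rose to 13.61 FPKM in MHCII-hi against 6.75 FPKM in MHCII-lo (log2 change 0.91, limma adjusted p = 0.000184). Rnase6, an antimicrobial ribonuclease of myeloid cells, rose to 13.91 against 7.68 FPKM (log2 change 0.78, limma adjusted p = 0.000191). Rnase2a, whose promoter window was 89.6% identical to that of Ear6, fell to 0.687 ± 0.535 FPKM in MHCII-hi against 2.69 ± 0.533 FPKM in MHCII-lo (SD, n = 3 each; log2 change −1.17, limma adjusted p = 0.00434), with an estimated 6 fragments in its lowest library. Rnase4 also fell, to 3.84 against 5.6 FPKM (log2 change −0.44, limma adjusted p = 0.0012). Ang, the angiogenin gene, did not pass (0.857 and 1.17 FPKM, log2 change −0.23, limma adjusted p = 0.173), and Rnase2b was below the minimum at 0.153 and 0.543 FPKM. High expression in these libraries, above 100 FPKM, was thus seen in Ear1, Ear2, Ear6 and, in MHCII-hi, Ear-ps9. It was seen in none of the 12 listed relatives in the tables, and listed ribonucleases that were not analysed are not covered.

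Alox15 encodes a lipoxygenase that adds oxygen to arachidonic and linoleic acid and is strongly expressed in human eosinophils and in some mouse macrophages. It was at 133.55, 132.83 and 128.05 FPKM in MHCII-hi libraries and 28.96, 26.33 and 28.72 FPKM in MHCII-lo libraries. The gap between groups was many times the spread within either. The means of 131.5 ± 2.99 and 28 ± 1.45 FPKM (SD, n = 3 each) gave a ratio of 4.70 and a log2 change of 2.19 (limma adjusted p = 5.15e-08, SE 0.041). The 95% intervals of Alox15 and Ear6 overlapped, and that of Alox15 lay above that of Ear2, the next gene in the order.

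Alox15 lies at chr11:70344152-70352031 on the minus strand of GRCm38, 21.5 kb from Alox12e and 88.8 kb from Alox12, other lipoxygenases. Alox12e also rose, to 2.55 FPKM in MHCII-hi against 0.853 FPKM in MHCII-lo (log2 change 0.94, limma adjusted p = 6.39e-05), and Alox12 was below the minimum at 0.747 and 0.12 FPKM. Genes of the leukotriene route, which shares a substrate with Alox15, were mostly lower in MHCII-hi. Alox5ap, which presents arachidonic acid to the leukotriene-forming lipoxygenase Alox5, fell to 225.8 ± 1.38 FPKM in MHCII-hi against 386.7 ± 9.56 FPKM in MHCII-lo (SD, n = 3 each; log2 change −0.77, limma adjusted p = 3.95e-07). Ltb4r1, the leukotriene B receptor, fell to 39.44 against 53.25 FPKM, and Gpx4, which reduces lipid hydroperoxides, fell to 51.98 against 71.74 FPKM. Lta4h, the hydrolase that makes the ligand of Ltb4r1, averaged 81.48 against 89.64 FPKM and passed the test (log2 change −0.14, limma adjusted p = 0.00134), with its sign turning when libraries were scaled without immunoglobulin genes (0.04, adjusted p = 0.148). Of the 8 genes of this list that were tested, 1 was higher and 7 were lower with the deposited scaling, and 1 was higher, 4 were lower and 3 did not pass with scaling without immunoglobulin genes.

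Ccr3, the receptor for the eotaxin chemokines, was the scarcest of the 9. It was at 3.89, 4.63 and 4.34 FPKM in MHCII-hi libraries and at 1.12, 1.15 and 1.57 FPKM in MHCII-lo libraries, the lowest of which stood for an estimated 84 fragments. The 3 MHCII-hi values were all above the MHCII-lo values, with 1 MHCII-lo library higher than the other two. The means of 4.29 ± 0.373 and 1.28 ± 0.252 FPKM (SD, n = 3 each) gave a ratio of 3.35. On the log2(FPKM + 1) scale, which understates the change of scarce genes, the change was 1.22 (limma adjusted p = 6.54e-05, SE 0.097, 95% interval 0.98 to 1.45), and with a pseudocount of 0.1 it was 1.68.

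Ccr3 lies at chr9:124021972-124031689 on the plus strand, within a cluster of chemokine receptor genes, 53.3 kb from Ccr1. The coding sequences of Ccr3 and Ccr1 were 68.0% identical. Ccr1, a receptor of neutrophils and monocytes, went the other way, to 32.12 ± 0.822 FPKM in MHCII-hi against 78.7 ± 0.584 FPKM in MHCII-lo (SD, n = 3 each; log2 change −1.27, limma adjusted p = 9.09e-08). Ccr2, the main receptor of inflammatory monocytes, also fell, to 40.77 against 54.6 FPKM (log2 change −0.41, limma adjusted p = 1.48e-05). Of the 4 tested genes listed for the cluster beside Ccr3, 2 were higher (Ccrl2 and Cxcr6) and those 2 were lower. Ccrl2, a chemerin-binding receptor, rose to 18.16 against 6.77 FPKM, and Cxcr6 rose to 1.91 against 0.657 FPKM.

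Of the 6 listed Ccr3 ligands in the tables, 2 were tested. Ccl5 rose to 36.92 FPKM in MHCII-hi against 10.27 FPKM in MHCII-lo (log2 change 1.76, limma adjusted p = 5.95e-06). Ccl2, listed beside the ligands of Ccr3 and better known as the ligand of Ccr2, fell to 9.51 against 18.57 FPKM (log2 change −0.90, limma adjusted p = 3.13e-05). Ccl24, an eotaxin, lay at 0.0833 and 0.0367 FPKM, below the minimum.

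Siglecf encodes a sialic acid-binding lectin of the eosinophil surface with inhibitory signalling motifs, and changed the least of the 9 genes. Its level was 17.98, 18.93 and 17.77 FPKM in MHCII-hi libraries and 10.88, 10.21 and 8.75 FPKM in MHCII-lo libraries. The groups did not overlap, and the MHCII-lo values were spread over a wider part of the gap than for the granule genes. The means of 18.23 ± 0.618 and 9.95 ± 1.09 FPKM (SD, n = 3 each) gave a ratio of 1.83 and a log2 change of 0.82 (limma adjusted p = 0.000118, SE 0.074, 95% interval 0.64 to 0.995). Its lowest library stood for an estimated 605 fragments. Siglecf lies at chr7:43351341-43359531 on the plus strand, and its relatives on the chromosome went both ways. Siglece, an inhibitory receptor of neutrophils and monocytes, fell to 13.53 FPKM in MHCII-hi against 36.04 FPKM in MHCII-lo (log2 change −1.35, limma adjusted p = 1.2e-06), and Cd33 fell to 13.74 against 31.37 FPKM (log2 change −1.13, limma adjusted p = 1.27e-06). Siglecg, a B cell receptor inhibitor, rose to 9.67 against 4.2 FPKM, and Siglech, a marker of plasmacytoid dendritic cells, rose to 3.86 against 0.56 FPKM. In the Siglec family 4 relatives were tested, of which 2 were higher and 2 were lower.

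**Figure D2:**
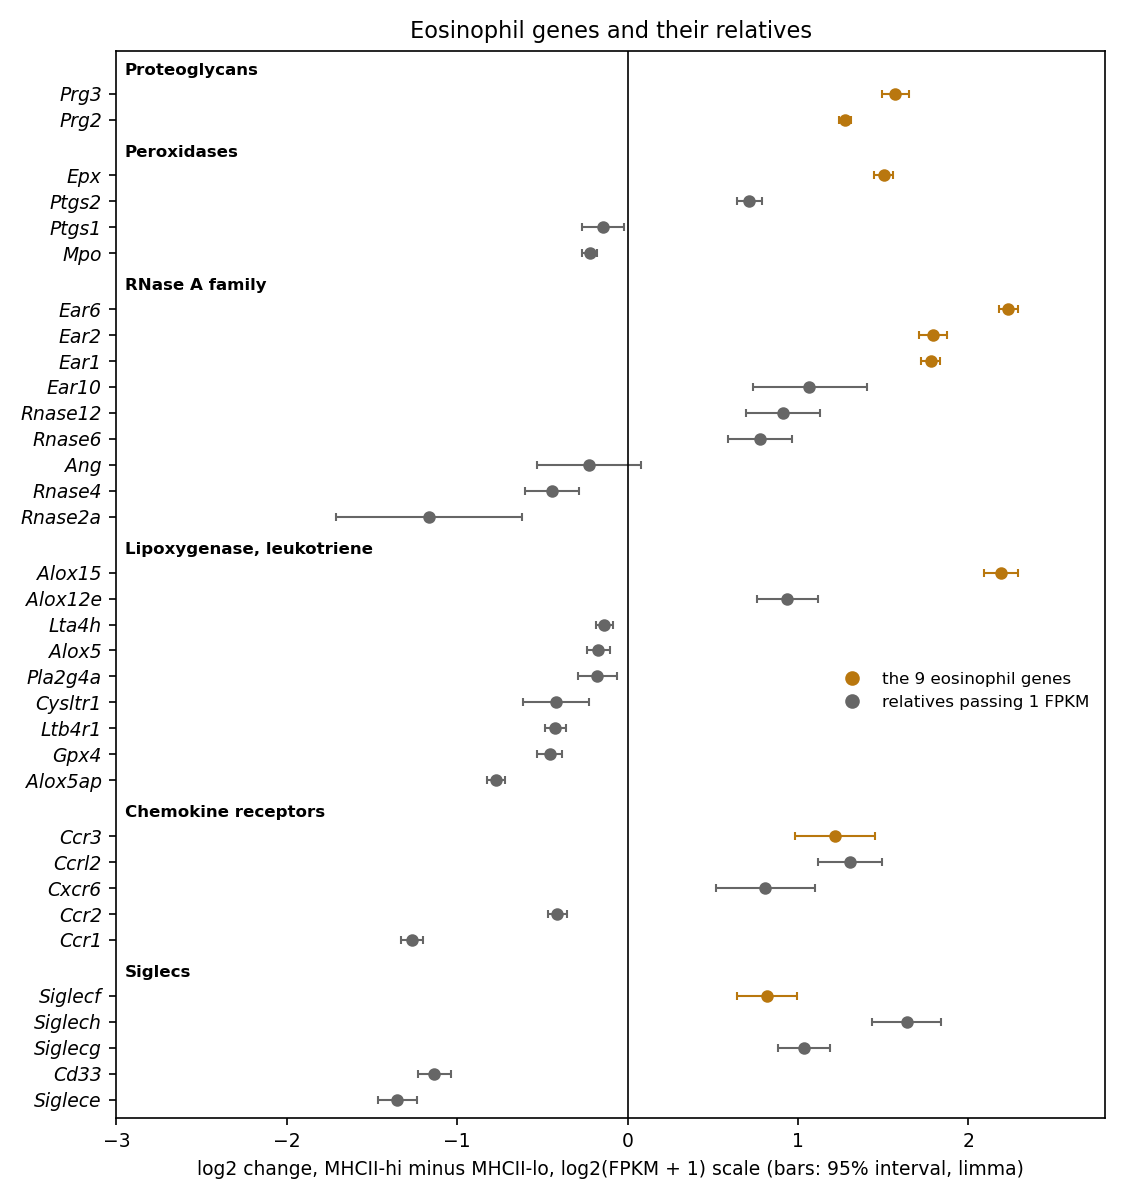
Log2 change (MHCII-hi minus MHCII-lo, from log2(FPKM + 1) values) of the 9 eosinophil genes (ochre) and of their tested relatives (grey), by family, with bars for the 95% interval of limma. The ochre points all lie right of 0, from 0.82 for Siglecf to 2.23 for Ear6, while in every family with grey points these lie on both sides of 0.

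Across these libraries the 9 genes did not all change by the same amount. Ordered by log2 change they ran Ear6, Alox15, Ear2, Ear1, Prg3, Epx, Prg2, Ccr3 and Siglecf. The 95% intervals of neighbours overlapped between Ear6 and Alox15, between Ear2 and Ear1, between Prg3 and Epx, between Prg2 and Ccr3, and between Ccr3 and Siglecf. They did not overlap between Alox15 and Ear2, between Ear1 and Prg3, or between Epx and Prg2. The place of Ccr3 rests on the pseudocount of 1: its ratio of means, 3.35, was above those of Prg3, Epx and Prg2, and with a pseudocount of 0.1 its log2 change of 1.68 was above the 1.58 of Prg3.

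A ratio of 2 genes within a library does not depend on a factor applied to the whole library, so each gene was also set against Prg2. Ear6 stood at 10.7%, 10.6% and 10.3% of Prg2 in MHCII-hi libraries and at 5.45%, 5.44% and 5.25% in MHCII-lo libraries. Alox15 stood at 2.75%, 2.74% and 2.57% of Prg2 in MHCII-hi and at 1.43%, 1.29% and 1.43% in MHCII-lo. For both, the share of Prg2 was about doubled, with log2 differences on the pseudocount scale of 0.96 for Ear6 and 0.92 for Alox15. Ear1 stood at a mean of 19.1% of Prg2 in MHCII-hi and 13.4% in MHCII-lo (log2 difference 0.50), and Ear2 at 14.7% and 10.2% (0.52). Prg3 stood at 4.15% and 3.35% (0.30) and Epx at 7.54% and 6.42% (0.23). Siglecf went the other way, at 0.372% of Prg2 in MHCII-hi and 0.491% in MHCII-lo, a log2 difference of −0.46.

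Each of these 7 differences had a two-sided exact permutation p of 0.1, the smallest that 3 against 3 libraries allows. After Benjamini-Hochberg adjustment over the 8 genes compared, that p was 0.114. The design can therefore not pass 0.05 in this test. The share of all genes that reach the same p in their ratio to Prg2 was not counted. A gene at the median log2 change of all tested genes, −0.04, also differs from Prg2, at 1.28. The p of 0.1 is therefore not read as a trait particular to these genes. Ccr3 gave no stable direction: its log2 difference was −0.06 with overlapping ratios (exact permutation p = 0.7), 0.40 with a pseudocount of 0.1 (exact permutation p = 0.2) and 0.04 without MHCII-lo replicate 3 (exact permutation p = 0.8), while its plain share of Prg2 averaged 0.0874% in MHCII-hi and 0.0633% in MHCII-lo. Quantile normalization, which is not a single factor and was added after seeing the data, gave log2 differences nearer 0, of 0.28 for Ear1, 0.11 for Epx and −0.21 for Siglecf, whose groups then overlapped (exact permutation p = 0.2), while they were 0.83 for Ear6 and 1.05 for Alox15.

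**Figure D3:**
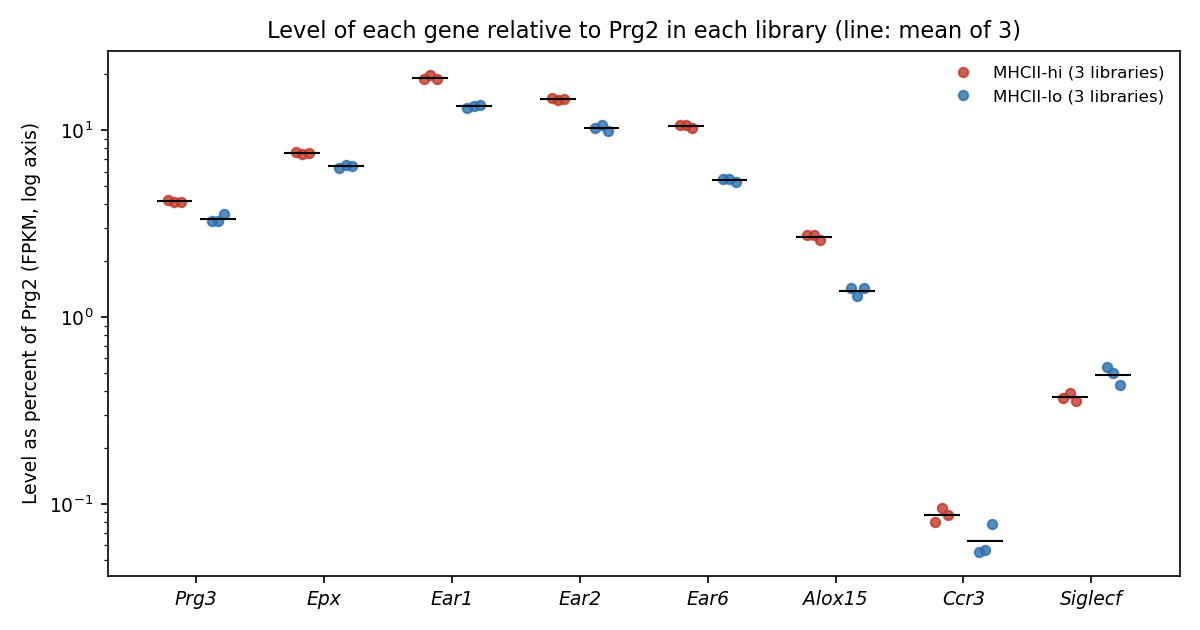
Level of each of 8 eosinophil genes as a percent of Prg2 in the same library, on a log axis, with MHCII-hi libraries to the left of MHCII-lo libraries and a line at the mean of 3. Ear6 (10.5% against 5.38%) and Alox15 (2.68% against 1.38%) show the widest gaps, and Siglecf (0.372% against 0.491%) is lower in MHCII-hi.

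Together the 9 genes summed to 7801 ± 86.6 FPKM in MHCII-hi libraries and 2850 ± 27.8 FPKM in MHCII-lo libraries (SD, n = 3 each), which is 2.04% and 0.856% of all FPKM. With immunoglobulin genes left out of the total the shares were 2.67% and 0.861%. Prg2 made up 62.9% ± 0.306 of the sum in MHCII-hi and 71.0% ± 0.208 in MHCII-lo, while the ribonucleases held larger shares in MHCII-hi. Ear1 made up 12.0% and 9.55%, Ear2 9.23% and 7.26%, and Ear6 6.62% and 3.82%. The make-up of this sum thus differed between the groups, as did its size. Which cell types made these transcripts was not tested.

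Genes outside the granule set that eosinophils are known for were mixed. Il5ra, the interleukin 5 receptor subunit that marks the lineage, averaged 5.58 ± 0.14 FPKM in MHCII-hi and 1.68 ± 0.177 FPKM in MHCII-lo (SD, n = 3 each), 3.32-fold higher (log2 change 1.296, limma adjusted p = 6.68e-06). Its signalling partner Csf2rb, shared with other myeloid cytokines, fell to 27.05 against 39.24 FPKM (log2 change −0.52, limma adjusted p = 1.32e-05). Of 30 tested genes in the list of eosinophil cytokine receptors and surface molecules, 10 were higher, 17 were lower and 3 did not pass, with a median log2 change of −0.16. With scaling without immunoglobulin genes 12 were higher and 14 were lower, and the median turned to 0.02. The smallest p-values of that list belonged to Thbs1, an adhesive glycoprotein, which rose to 129.2 against 56.45 FPKM, and to genes also used by neutrophils that fell. Among these, Cd300lf, an inhibitory receptor, fell to 13.89 against 32.88 FPKM, and C5ar1, the anaphylatoxin receptor, to 10.25 against 31.07 FPKM. Pirb, an inhibitory paired receptor, fell to 39.49 against 72.12 FPKM and Pira2, an activating one, to 12.38 against 24.83 FPKM, with the split of reads between these close paralogues uncertain.

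Of 27 tested regulators of the lineage, 14 were higher, 9 were lower and 4 did not pass, with a median log2 change of 0.16. With scaling without immunoglobulin genes 16 were higher and 6 were lower. Gata1 and Gata2, GATA factors needed for eosinophil and basophil development, rose to 8.58 ± 0.329 FPKM in MHCII-hi against 5.88 ± 0.446 FPKM in MHCII-lo (log2 change 0.48, limma adjusted p = 0.000481) and to 19.47 ± 0.498 against 10.77 ± 0.405 FPKM (log2 change 0.80, limma adjusted p = 6.28e-06; SD, n = 3 each). Trib1, a pseudokinase that shapes granulocyte identity, rose to 32.98 against 21.52 FPKM, Jak2, the kinase of the interleukin 5 receptor, to 32.71 against 21.06 FPKM, and Irf8 to 27.98 against 19.16 FPKM. Ikzf3, a lymphoid zinc finger factor, rose to 4.09 against 0.753 FPKM. Cebpe, a C/EBP factor needed for the late granules of neutrophils and eosinophils, fell to 41.3 ± 0.999 against 52.93 ± 2.74 FPKM (SD, n = 3 each; log2 change −0.35, limma adjusted p = 0.000433).

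Marker genes of other blood cells moved between the groups as well, and their part in the values of the 9 genes was not tested. Of 14 tested basophil and mast cell genes, 11 were higher, 2 were lower and 1 did not pass, with a median log2 change of 0.57. The 19 genes of that list summed to 1114 to 1133 FPKM in MHCII-hi libraries and 733.4 to 747.7 FPKM in MHCII-lo libraries. The basophil proteases Mcpt8 and Prss34 rose to 298.4 against 169.5 FPKM and to 480.7 against 244.0 FPKM, and Fcer1a and Cpa3 to 64.73 against 44.29 FPKM and 75.07 against 50.79 FPKM. Ifitm1 fell to 35.42 against 94.51 FPKM, and the mast cell proteases Mcpt4 and Tpsb2 were listed at 0 in every library. The ratios of Mcpt8, Prss34, Fcer1a, Cpa3, Ms4a2 (1.5, not passed) and Cd200r3 (1.22) were below the 2.42 of Prg2. Those of Il4 (2.86) and Gzmb (2.57), looked up after their values were seen, were above it. Il4 rests on an estimated 20 fragments in its lowest library.

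All 21 neutrophil markers were lower in MHCII-hi, with a median log2 change of −1.13 and sums of 20410 to 20700 FPKM in MHCII-hi against 46180 to 46730 FPKM in MHCII-lo. The smallest p-values there belonged to Mmp8, Chil3, Lcn2, Stfa3 and Mmp9. Of 12 plasma cell markers, 11 were higher and 1 did not pass, with a median log2 change of 2.44 and sums of 22000 to 22600 FPKM against 483.7 to 503.9 FPKM. Igkc, Igha, Jchain, Ighm and Irf4 led that list. Of 11 tested monocyte and macrophage markers, a class that can hold Ear2, Alox15 and Siglecf transcripts, 5 were higher (Itgax and Cx3cr1 among them), 5 were lower (Lyz2, Cd14 and Ccr2 among them) and 1 did not pass, with a median of −0.06 and sums of 2218 to 2291 FPKM against 3238 to 3258 FPKM.

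**Figure D4:**
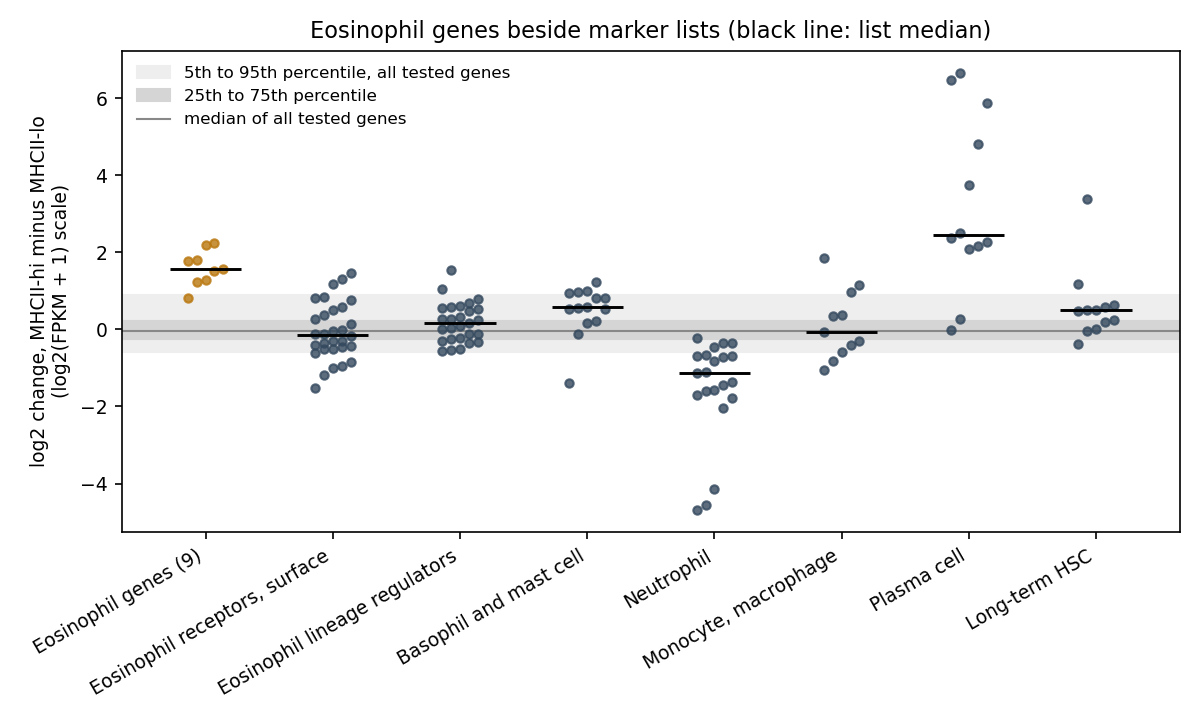
Log2 change, MHCII-hi minus MHCII-lo, of each tested gene of the 9 eosinophil genes (ochre) and of 7 marker lists, with a black line at each list's median and grey bands for all 12110 tested genes. The 9 eosinophil genes have a median of 1.57, between those of the basophil and mast cell list (0.57) and the plasma cell list (2.44), while the neutrophil list lies below 0 (−1.13).

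The genes whose pattern over the 6 libraries was most like that of Prg2 were sought among 3723 other genes with at least 10 FPKM in both groups, by the Euclidean distance between log2 values centred on each gene's own mean. They were Per1, a repressor of the circadian clock, at a distance of 0.046, Herpud1, an endoplasmic reticulum stress protein, at 0.063, H2-Q7, a nonclassical class I gene, at 0.081, Nfkbia, an inhibitor of NF-kB, at 0.099, Thbs1 at 0.119, and Fosb, an AP-1 subunit, at 0.13. Per1 was at 39.82 ± 0.627 FPKM in MHCII-hi and 15.87 ± 0.34 FPKM in MHCII-lo (SD, n = 3 each). With 2 groups of tight replicates such a distance mainly measures how alike the group differences are. The nearest of the other 8 eosinophil genes by this measure were Epx at 0.281 and Ccr3 at 0.282, that of Ccr3 lying below the 10 FPKM minimum and resting on the pseudocount, and the farthest were Alox15 at 1.13 and Ear6 at 1.18.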

How the data were processed

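Polyadenylated RNA of 6 libraries, 3 of MHCII-hi and 3 of MHCII-lo cells, was analysed. Per the labels' protocols, RNA went into strand-specific mRNA libraries. Tools named in the submitters' processing notes are fastp, HISAT2 and StringTie, with the mouse build GRCm38 (mm10) and neither versions nor an annotation. Each deposited table gives 1 value for each gene symbol, which was read as FPKM made by the authors, that is, scaled by them to transcript length and library size. No unit stands in the headers; the reading rests on values that are not whole, sums that differ between libraries, and steps that shrink with gene length. Abundant immunoglobulin transcripts lower all other FPKM values of a library.

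Of 30803 rows, 70 that repeated a symbol were dropped in favour of the row with the highest mean, leaving 30733. Every gene whose 6 values averaged 1 FPKM or more was tested with limma 3.58.1 (R 4.3.3) on log2(FPKM + 1) with a variance trend and no covariate, two-sided, adjusted by Benjamini-Hochberg over all 12110. Ratios to Prg2 were compared by exact permutation over libraries. Fragments per library were estimated from the FPKM that a single fragment is worth, and counting precision follows from them. On simulated data of 12110 genes with 50 changed at each size, the fit called 52% of 1.25-fold, 82% of 1.5-fold, 90% of 2-fold and 100% of 4-fold changes, with 9 false calls. Only 200 genes were changed there, against 58.6% of tested genes called in these libraries, and no immunoglobulin shift was simulated. These rates need not hold for the libraries. The variance between replicate libraries was 2.65 to 3.05 times that of counting noise at the estimated depths, so none was a copy of another.

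The 9 members and all lists were chosen with earlier results of these data known. The text names all members, their Ear and haem peroxidase relatives, the 5 genes of each other list with the smallest p, and the 6 genes most like Prg2. Genes named beyond that rule, after their values were seen, are Ear-ps9, Il4, Gzmb, Csf2rb, Gata1, Cebpe, Ang, Rnase2b, Alox12 and Ccl24; Il5ra, the HSC markers and the mast cell proteases come from the fixed marker lists. Some listed symbols, among them Ear3, Ear4, Ear5, Ear7, Ear12, Ear14, Ccl11 and Mcpt1, were not analysed here, and some listed genes are not reported here and were left out of their lists. Alternatives were other pseudocounts, expression minimums, scalings, variance moderation, summed repeat rows, a replicate block and each library left out. Promoter windows are from RefSeq (GRCm38.p6) and coding sequences and gene positions from GENCODE M21 (GRCm38); identities were computed with Biopython 1.88.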

Additional observations from a re-analysis of the deposited data

How the results depend on the processing

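The 9 eosinophil genes were called higher in every alternative in which they were tested, with adjusted p-values of at most 0.00087 (limma). At a minimum of 5 FPKM Ccr3 was not tested and the other 8 were called. Log2 changes ranged from 1.03 (quantile normalization) to 1.45 (scaling without immunoglobulin genes) for Prg2, from 1.85 to 2.41 for Ear6 between the same settings, and from 0.74 (without MHCII-lo replicate 3) to 0.98 for Siglecf.

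Counts over all genes moved most. Against 3084 higher and 4009 lower calls, 1792 were higher at a minimum of 5 FPKM, where 7327 genes were tested, and 4934 were higher and 2127 lower with scaling without immunoglobulin genes. That scaling shifted the median log2 change of all genes by 0.15 and put 69.9% of calls on the higher side, against 43.5% as reported and 34.7% with quantile normalization. Leaving out 1 library gave 2716 to 2922 higher and 3583 to 3693 lower calls. Under scaling without immunoglobulin genes Ptgs1 turned to 0.024 and Lta4h to 0.039, while Ptgs1 gained a call as lower at a minimum of 5 FPKM (−0.142) and without MHCII-hi replicate 2 (−0.18). Mpo kept its sign and was no longer called. Relative to Prg2, Ccr3 turned to 0.404 with a pseudocount of 0.1 and to 0.065 with quantile normalization, and leaving out 1 library gave −0.112 to 0.035. The ratios of Siglecf to Prg2 overlapped between the groups with quantile normalization. The causes were not tested.

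With the replicate number as a block, 2856 genes were higher and 3782 lower, and all 9 eosinophil genes were called. Deviations of same-numbered libraries correlated at −0.092, −0.004 and −0.035. The labels do not say whether same-numbered libraries share a mouse or a sort, and with 3 libraries in each group these correlations cannot decide it.

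Among the 9 genes depth limits Ccr3 most, at an estimated 84 fragments in its lowest library, and among relatives it limits Rnase2a (6) and Ear10 (11) more. FPKM files hold no counts, no count model was run, and shared stretches leave the split among Ear1, Ear2, Ear10 and Ear-ps9 uncertain.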
